A study of Bos taurus with 2 samples.

Results

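The cells described here are SOX2-positive neural progenitors of the day 25 bovine embryo, divided by which anterior-posterior gene they carried: 571 HOX-positive and 61 OTX2-positive cells, 632 of 4437 barcodes in all. A progenitor was a barcode with at least 2000 UMI (a molecular tag that counts each captured RNA molecule once), at least 1 SOX2 UMI and fewer than 3 UMI of the neuron genes ELAVL3, ELAVL4 and STMN2 together. HOX-positive progenitors had at least 1 UMI summed over HOXA2, HOXA3, HOXB2 and HOXB3 and no OTX2 UMI. OTX2-positive progenitors had at least 1 OTX2 UMI and none of those 4 HOX genes. Of 1606 progenitors, 37 more carried both and 937 carried neither.

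HOX genes are homeodomain transcription factors that are switched on from the hindbrain backwards and give hindbrain and spinal cord segments their identity, with MEIS and PBX proteins as DNA-binding partners. OTX2 is a homeodomain factor of the forebrain and midbrain, and in many vertebrates its posterior limit of expression marks the midbrain-hindbrain border. Across the other axis, the roof plate along the dorsal midline secretes WNT, R-spondin and BMP proteins, and the floor plate along the ventral midline secretes SHH.

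Single-cell RNA was sequenced by the 10x 3′ method from flushed chimeric embryos at day 25, into which bovine embryonic stem cells (bESC) had been incorporated. Both libraries, replicate 1 and replicate 2, belong to that 1 group, with no unchimeric embryos among the samples. The cells were sorted after papain dissociation; what was sorted for is not stated in the labels, and the table carries a GFP row. Whether each library is a separate embryo or pool is also not stated, so the spread between these libraries may be technical. The p-values between the sides rest on 1 spread trended over all genes. They do not rest on each gene's own spread between libraries.

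Replicate 1 held 1973 barcodes and 11182089 UMI, and replicate 2 held 2464 barcodes and 15427708 UMI. HOX-positive progenitors numbered 224 and 347, with a median of 6827.5 and 7785 UMI per cell and 1575743 and 2698938 UMI in all. OTX2-positive progenitors numbered 30 and 31, with a median of 7135.5 and 6267 UMI and 208496 and 208722 UMI in all. A gene on the OTX2-positive side was therefore measured in far fewer transcripts, and its level is the less precise of the pair. The libraries shared 6 barcode sequences, 0 of them among the members. Doublets were not called. The cells with both HOX and OTX2 had a median of 6665 UMI. HOX-positive cells had 7334, OTX2-positive cells 6545 and progenitors with neither 5665.

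Members were chosen by the measured UMI of these genes, and membership rested on very few transcripts. Of the 571 HOX-positive cells, 402 had a single HOX UMI, 130 had 2, and the highest cell had 7. Of the 61 OTX2-positive cells, 37 had a single OTX2 UMI, 17 had 2, 4 had 3 and 3 had 4. HOXA2 was found in 265 of the HOX-positive cells, HOXB2 in 215, HOXA3 in 172 and HOXB3 in 28. In 469 cells only 1 of the 4 genes was seen. These values chose the cells and are given as a description. Just inside the UMI limit, 7 and 4 members had at least 2000 and fewer than 2500 UMI, and 6 and 3 otherwise matching cells had at least 1500 and fewer than 2000. Members with the highest allowed count of neuron genes, 2 UMI, numbered 38 and 70, while 32 and 32 otherwise matching cells had 3. SOX2 was a single UMI in 86 and 108 members and 0 in 119 and 122 cells that met every other limit.

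HOX-positive cells made up 32.9% and 37.5% of the progenitors, a mean of 35.2% ± 3.27 (SD, n = 2). OTX2-positive cells made up 4.41% and 3.35%, a mean of 3.88% ± 0.745 (SD, n = 2). Most carriers had 1 UMI, so the shares depend on depth. When each cell was thinned to 2000 UMI, which left out 0 cells, a HOX UMI was found in 14.2% and 14.3% of progenitors, against 34.8% and 40.1% at full depth. An OTX2 UMI was found in 2.20% and 2.38%, against 6.31% and 5.95%. As a guide to free RNA, among 29 cells with over 10% globin UMI, at a median of 26933 UMI, 0 had a HOX UMI and 0 had an OTX2 UMI, which allows a share of up to 10.3%. Among 104 cells with 10 or more COL1A1 UMI, at a median of 12323 UMI, 43 had a HOX UMI and 0 had an OTX2 UMI, which allows a share of up to 2.88%. OTX2 in progenitors, at 6.31% and 5.95%, was above the second limit and below the first. After thinning, at 2.20% and 2.38%, it was below both. HOX in those COL1A1 cells, at 41.3%, was not below the 37.9% of progenitors, whose median was 6379.5 UMI. After thinning, HOX was found in 14.7% and 2.86% of the COL1A1 cells, against 14.2% and 14.3% of progenitors. The COL1A1 cells were not separated from the progenitors, and 1 HOX-positive member held 227 COL1A1 UMI. Whether they transcribe HOX genes themselves is not known, so their HOX share is no measure of free RNA. The part of free RNA in these shares was not tested.

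HOX was detected in like shares of the progenitors with and without an OTX2 UMI. In replicate 1, 13 of 43 OTX2-carrying progenitors also had a HOX UMI (30.2%, exact Clopper-Pearson 95% interval 17.2 to 46.1%), and 224 of 638 without OTX2 did (35.1%, 31.4 to 39.0%). In replicate 2 the counts were 24 of 55 (43.6%, 30.3 to 57.7%) and 347 of 870 (39.9%, 36.6 to 43.2%). The direction of the difference was opposite in the libraries, and each interval overlapped its partner. After thinning, the shares were 13.3% and 13.6% with OTX2 and 14.3% and 14.3% without. Such intervals cover counting error only, and with 1 UMI behind most cells a HOX-free cell may have HOX transcripts that were not captured.

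**Figure D1:**
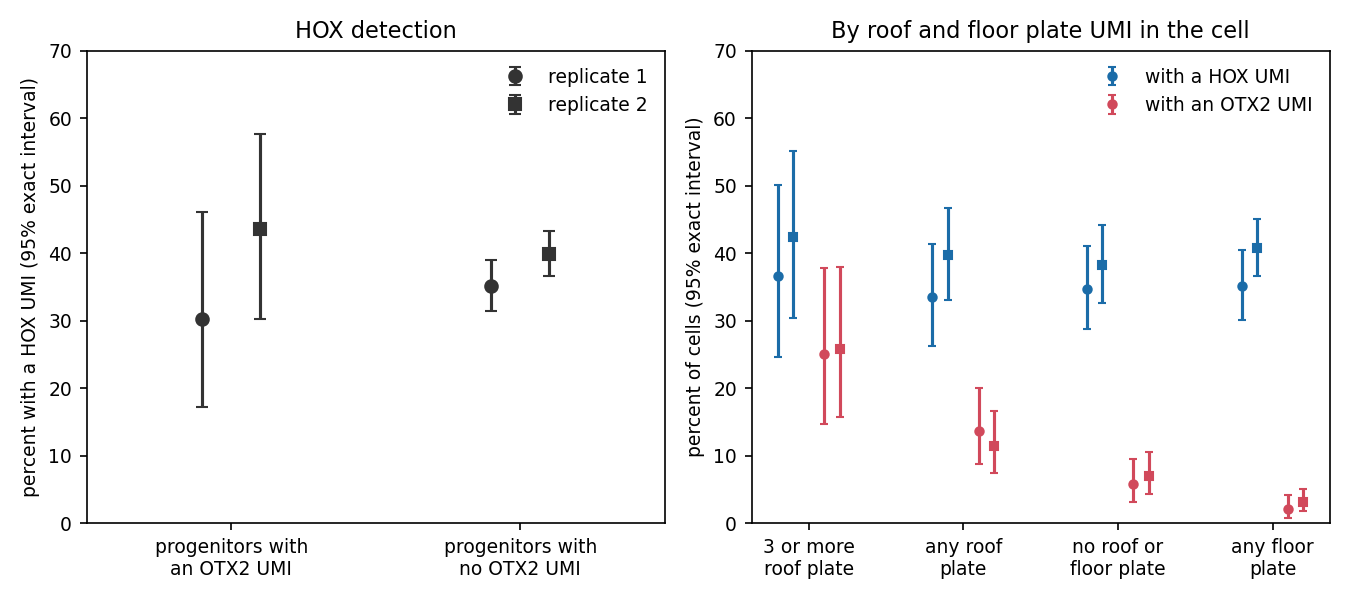
Left, percent of SOX2-positive progenitors with a HOX UMI, among those with and without an OTX2 UMI. Right, percent with a HOX UMI (blue) or an OTX2 UMI (red) among progenitors with roof plate UMI (RSPO1, RSPO2, RSPO3, LMX1A) or floor plate UMI (SHH, FOXA2). Circles are replicate 1, squares replicate 2, and bars are exact 95% intervals. HOX lies between 33.5 and 42.4% in all 4 kinds of cell on the right, while OTX2 goes from 25.0 and 25.8% to 2.05 and 3.18%.

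The names forebrain or midbrain and hindbrain or caudal were checked against regional regulators that the choice of cells did not use. Most were counted too rarely to bear on the names, and those that could be tested pointed in different directions. SIX3, RAX and FGF8, of the anterior forebrain, eye field and isthmus, had no UMI on either side. EN1 and EN2, of the midbrain and anterior hindbrain, had 1 and 5 UMI in all, each on the HOX-positive side, whose sums were also far deeper. OTX1, the paralogue of OTX2, had 4 and 8 UMI on the HOX-positive side and 11 and 2 on the OTX2-positive side, or 2.55 and 3.20 against 51.7 and 9.69 CPM. OTX1 was thus higher on the OTX2-positive side in both libraries, with too few UMI to be tested.

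Counts over all genes serve as the background: of 9801 genes tested between the sides with edgeR, 322 passed at an adjusted p under 0.05 (3.29%), 180 higher in HOX-positive (1.84%) and 142 higher in OTX2-positive progenitors (1.45%). With no replicate block the numbers were 135, 43 and 92. The forebrain list had 1 of 5 tested members called, and 4 of the 5 had a log2 fold change toward OTX2-positive cells. The call was SIX6, an eye field and hypothalamic factor, at 21.7 and 16.0 CPM in HOX-positive and 70.4 and 48.4 CPM in OTX2-positive cells (log2 fold change -1.65 ± 0.45 SE, edgeR adjusted p = 0.0112; up to 0.275 over its alternatives). CPM is the depth-normalised count of a summed side and library, scaled by TMM factors, and log2 fold changes are HOX-positive minus OTX2-positive throughout, with n = 2 libraries. Of 7 midbrain and isthmus genes tested, all 7 had a fold change toward OTX2-positive cells, with a median of -0.80, and the list summed to 509 and 494 against 728 and 940 CPM. Over all 9801 tested genes, 4800 had a fold change in that direction. LMX1A, described below with the roof plate genes, was the 1 called. The WNT target SP5 (-1.97 ± 0.74 SE, edgeR adjusted p = 0.147) and LMX1B (-0.86 ± 0.76 SE, edgeR adjusted p = 0.726) were not called. Members such as LMX1A, SP5 and DUSP6 also belong to the roof plate, WNT and FGF lists, so the directions of these lists are not independent.

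Of 7 hindbrain regulators tested, 2 were called, and both were higher on the OTX2-positive side. EPHA4, an ephrin receptor of rhombomere boundaries, stood at 146 and 82.5 CPM in HOX-positive and 197 and 203 CPM in OTX2-positive cells (log2 fold change -0.86 ± 0.24 SE, edgeR adjusted p = 0.0159). The sides did not overlap, but the call was lost with total UMI scaling (adjusted p = 0.0743; up to 0.946 over its alternatives). EGR2, of rhombomeres 3 and 5, had 8 and 7 UMI against 0 and 1, or 5.11 and 2.80 against 0 and 4.84 CPM, and GBX2, of the anterior hindbrain, had 2 and 0 against 0 and 0. IRX3, at 58.7 and 56.1 against 47.0 and 67.8 CPM, had a log2 fold change of 0.00 ± 0.38 SE (edgeR adjusted p = 1.00).

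HOX genes outside the rule were sparse, so HOX-positive cells were not shown to be caudal beyond their choosing genes. HOXB1 had 1 UMI in all. HOXB4 had 2 and 2 UMI on the HOX-positive side and none on the other. HOXD3 was at 4.47 and 5.21 CPM on the HOX-positive side and at 4.70 and 4.84 CPM, 1 UMI in each library, on the OTX2-positive side. HOX genes of groups 6 to 13, which mark trunk and tail, summed to 5.74 and 7.21 CPM on the HOX-positive side and to 0 on the shallower OTX2-positive side. The HOX cofactors were abundant on both sides, and 0 of 9 were called by edgeR, DESeq2 or limma, with 2 at an unadjusted p under 0.05. MEIS1 stood at 297 and 262 against 263 and 194 CPM, and MEIS2 at 355 and 335 against 244 and 228 CPM (log2 fold change 0.55 ± 0.20 SE, edgeR adjusted p = 0.127). Retinoic acid genes gave 1 call of 7: CRABP1, an intracellular retinoic acid binding protein, at 324 and 432 against 235 and 213 CPM (0.74 ± 0.20 SE, edgeR adjusted p = 0.00989). Its call was lost without a replicate block (adjusted p = 0.0827), and its adjusted p ranged from 0.00103 to 0.625 over 12 alternatives. Tested genes of the forebrain and midbrain lists thus leaned toward the OTX2-positive side with few calls, in part through genes shared with the roof plate, WNT and FGF lists. Hindbrain genes did not lean toward the HOX-positive side, so the cells are named below by the rule and not by a brain region.

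The sides differed in genes of the dorsal-ventral axis: roof plate signals were higher in OTX2-positive progenitors and floor plate genes were higher in HOX-positive ones. RSPO2, a secreted R-spondin that amplifies WNT signalling, was at 15.3 and 29.6 CPM in HOX-positive and 526 and 557 CPM in OTX2-positive cells. Both OTX2-positive values were far above both HOX-positive ones (log2 fold change -4.57 ± 0.23 SE, edgeR adjusted p = 1.43e-79). RSPO3 was at 83.6 and 60.1 against 817 and 572 CPM (-3.27 ± 0.19 SE, edgeR adjusted p = 1.21e-59), and RSPO1 at 7.66 and 3.60 against 51.7 and 72.7 CPM (-3.52 ± 0.56 SE, edgeR adjusted p = 8.85e-08). All 3 R-spondins thus rose together on the OTX2-positive side, in both libraries. LMX1A, the LIM-homeodomain factor that specifies roof plate and also midbrain floor plate, was at 23.6 and 15.2 against 150.3 and 145 CPM (-2.95 ± 0.34 SE, edgeR adjusted p = 3.11e-15).

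**Figure D2:**
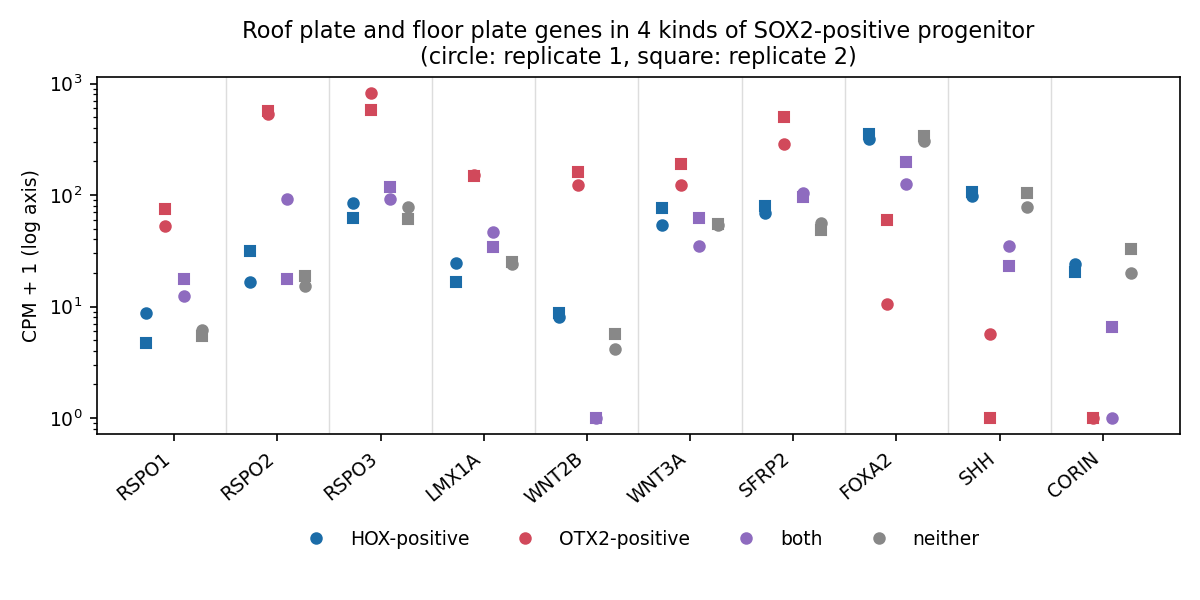
Level of each gene in CPM plus 1, on a log axis, summed over cells of 4 kinds of progenitor in each library (circle replicate 1, square replicate 2), scaled in 1 fit of all 4 kinds. OTX2-positive cells (red) lie above the other kinds for the 7 genes on the left and below them for FOXA2 and SHH, while HOX-positive (blue) and neither (grey) lie close together.

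In the dorsal and roof plate list 5 of 13 tested members were called, each higher in OTX2-positive cells, and the median log2 fold change of the list was -0.68, against 0.01 for all tested genes. The fifth was WNT3A, a roof plate WNT ligand, at 53.0 and 74.1 against 122 and 189 CPM (-1.29 ± 0.28 SE, edgeR adjusted p = 5.36e-04). The broader dorsal factors PAX3, MSX1, ZIC1 and ZIC4 were not called. PAX3, which marks dorsal progenitors, was at 156 and 142 against 183 and 150.2 CPM (-0.16 ± 0.24 SE, edgeR adjusted p = 0.867), so its values overlapped between the sides. GDF7 had no UMI on either side, and WNT1 had 0 and 2 UMI on the HOX-positive side and none on the other.

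The WNT pathway list had 7 of 21 tested members called, all higher in OTX2-positive cells, with a median log2 fold change of -0.53; 5 of the 7 were the R-spondins, WNT3A and WNT2B. WNT2B, a ligand of the dorsal midline and ciliary margin, was at 7.02 and 7.61 against 122 and 159.9 CPM (-4.26 ± 0.41 SE, edgeR adjusted p = 1.52e-22). The secreted WNT modulator SFRP2 was at 67.0 and 76.5 against 286 and 494 CPM (-2.43 ± 0.22 SE, edgeR adjusted p = 3.75e-25). TCF7L2, a nuclear effector, was at 247 and 229.8 against 376 and 412 CPM (-0.72 ± 0.19 SE, edgeR adjusted p = 0.00656), and was called in 7 of 12 alternatives (adjusted p up to 0.770). The pathway's feedback targets AXIN2 (-0.34 ± 0.44 SE, edgeR adjusted p = 0.849) and LEF1 (-0.34 ± 0.23 SE, edgeR adjusted p = 0.602) were not called. BMP7, a roof plate BMP ligand, was also higher on the OTX2-positive side, at 4.47 and 8.41 against 42.3 and 29.1 CPM (-2.43 ± 0.64 SE, edgeR adjusted p = 0.00738; called in 7 of 9 alternatives, up to 0.0632). In contrast ID1 and ID4, transcriptional targets of BMP signalling, were higher in HOX-positive cells. ID1 was at 1381 and 1622 against 812 and 1163 CPM (0.62 ± 0.12 SE, edgeR adjusted p = 2.63e-05), and was called in 9 of 12 alternatives, ID4 in 6 of 12 (adjusted p up to 0.802 and 0.681). ID2 and ID3 had log2 fold changes of 0.03 and 0.04 and were not called.

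These genes had the same direction in both libraries. Several were carried by a minority of the OTX2-positive cells: RSPO1 was found in 20.0% and 16.1%, WNT2B in 23.3% and 25.8% and LMX1A in 40.0% and 29.0%. RSPO3 was found in 56.7% and 48.4%, and WNT3A in 9 of 30 and 17 of 31 cells. RSPO2 UMI were found in 22 of the 61 OTX2-positive cells, 36.7% and 35.5%, against 3.12% and 2.02% of HOX-positive cells. The highest cell held 29 of 112 UMI in replicate 1 and 23 of 115 in replicate 2. In the HOX-positive cells of replicate 2, 1 cell held 43 of the 74 RSPO2 UMI. After thinning, RSPO2 was found in 33.3% and 32.3% of OTX2-positive and 1.34% and 1.44% of HOX-positive cells. RSPO3 was found in 46.7% and 32.3% against 11.6% and 9.22%, and LMX1A in 26.7% and 19.4% against 3.12% and 2.31%. The RSPO2 call was lost when cells with any neuron gene UMI were left out, which kept 16 and 17 OTX2-positive cells (log2 fold change -3.74, adjusted p = 0.549; range over 11 alternatives 9.47e-81 to 0.549). When sides were drawn again from thinned cells, 7 and 14 OTX2-positive cells were left, and RSPO3 moved to -1.35 (adjusted p = 0.413; over 12 alternatives 5.44e-60 to 0.413). SFRP2 also lost its call there (adjusted p = 0.298), as did WNT3A (0.873). Without neuron gene UMI, WNT2B (adjusted p = 0.0552) and WNT3A (0.448) were not called.

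The opposite pattern was seen for floor plate genes. FOXA2, the forkhead factor that specifies floor plate and endoderm, had 497 and 853 UMI in HOX-positive and 2 and 12 in OTX2-positive cells, or 317 and 342 against 9.39 and 58.1 CPM (log2 fold change 3.31 ± 0.32 SE, edgeR adjusted p = 1.52e-22). The sides did not overlap, although replicate 2 held most of the OTX2-positive UMI. SHH, the floor plate morphogen, had 152 and 255 UMI against 1 and 0 (edgeR adjusted p = 1.11e-10). With 1 UMI on the OTX2-positive side, the ratio of pooled levels was 42.0 with a 95% counting interval of 7.49 to 1663. CORIN, a floor plate protease, had 36 and 47 UMI against 0 and 0 (edgeR adjusted p = 0.0103), and was at least 2.85-fold higher in HOX-positive cells at a floor of 3 counts over the OTX2-positive side. The CORIN call was lost under 3 alternatives, with adjusted p between 0.0105 and 0.300 over 9.

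Of the ventral and floor plate list, 3 of 6 tested members were called, all higher in HOX-positive cells. The list's median log2 fold change of 4.31 includes genes such as CORIN that had no count on the OTX2-positive side. The other floor plate genes NTN1, the netrin guidance cue, and SPON1 were at 0.85 ± 0.38 SE and 1.33 ± 0.47 SE on the log2 scale and were not called (edgeR adjusted p = 0.302 and 0.102). FOXA2 was detected in 49.6% and 57.1% of HOX-positive cells and in 3.33% and 19.4% of OTX2-positive cells. After thinning it was detected in 28.6% and 33.7% against 0% (0 of 30, which allows up to 10.0%) and 6.45%. With sides drawn again from thinned cells, the FOXA2 fold change fell to 0.57 and was not called (adjusted p = 0.914; over 11 alternatives 2.91e-31 to 0.914). The hedgehog receptor and effectors did not follow SHH: of 11 tested pathway genes, SHH was the 1 called. PTCH1, the receptor and target of SHH, was at 197 and 169 against 174 and 169.6 CPM, and GLI3 at 345 and 321 against 409 and 247 CPM.

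Detection was also counted by cell, for the roof plate genes RSPO1, RSPO2, RSPO3 and LMX1A and the floor plate genes FOXA2 and SHH. All of these were called between the sides above. The OTX2 shares therefore describe the same difference per cell and are no separate test of it. OTX2 detection differed between cells with roof plate and floor plate UMI, and HOX detection differed little. Among progenitors with at least 3 roof plate UMI, 15 of 60 and 17 of 66 had an OTX2 UMI. Among those with any floor plate UMI, 7 of 341 and 17 of 534 did. The intervals of the 2 kinds, which cover counting error over cells only, did not overlap in either library. HOX shares were 36.7% and 42.4% in the former and 35.2% and 40.8% in the latter. Depth differed little between them, with medians of 7394 and 8458.5 against 7141 and 7990 UMI. Among 35 progenitors with at least 2 RSPO2 UMI, 22 had OTX2 and 10 had a HOX gene, with 2 in common. After thinning, OTX2 was found in 6.12% and 7.08% of cells with any roof plate UMI and 0.917% and 0.578% of those with any floor plate UMI, and these intervals overlapped in replicate 1 only.

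The OTX2-positive side was mixed. At least 3 roof plate UMI were found in 14 of 30 and 13 of 31 of its cells, and any floor plate UMI in 2 and 6. Cells with 2 or more OTX2 UMI had more roof plate transcripts than those with 1: RSPO2 was at 726 and 894 unscaled CPM (normalised to total UMI, with no TMM factor) against 420 and 245, and LMX1A at 213 and 193 against 117 and 99.7. The higher OTX2 cells numbered only 11 and 13. RSPO3 went the other way in replicate 1, at 614 against 972, and with OTX2 in replicate 2, at 691 against 453. Among HOX-positive cells FOXA2 was at 377 and 276 unscaled CPM in cells with 2 or more HOX UMI and 285 and 335 in cells with 1, opposite ways in the libraries. SHH was lower with 2 or more HOX UMI in both, at 73.9 and 64.4 against 107 and 109. The 37 cells with both HOX and OTX2 had RSPO2 at 99.7 and 16.7 unscaled CPM, below the 537 and 551 of OTX2-positive cells in both libraries, with FOXA2 at 137 and 195.

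**Figure D3:**
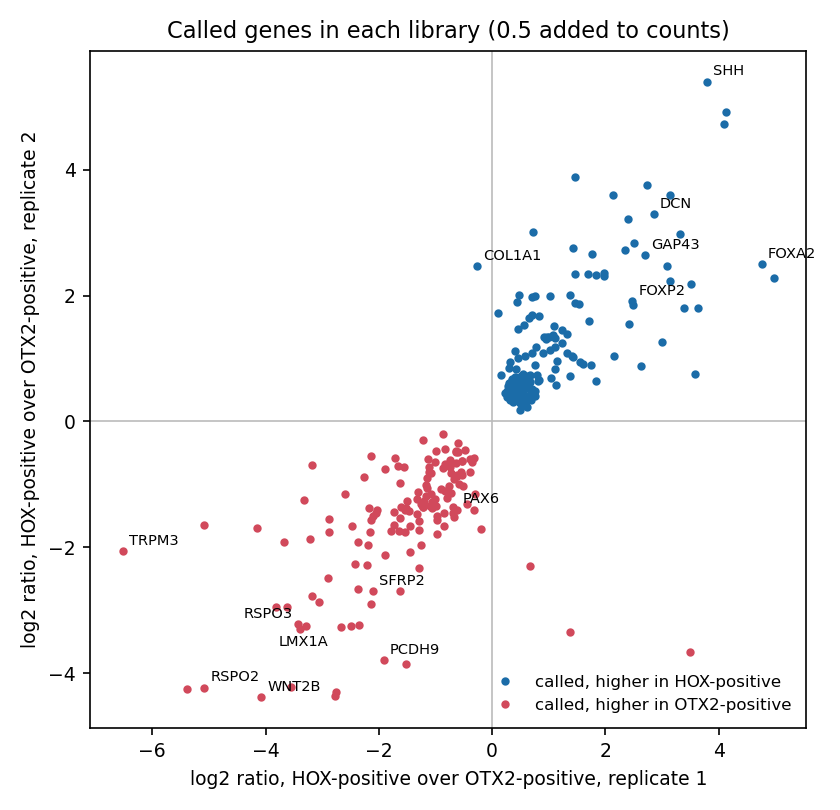
Log2 ratio of HOX-positive over OTX2-positive progenitors in replicate 1 (x axis) and replicate 2 (y axis), with 0.5 added to each count, for the 322 called genes. In 318 the direction is the same in both libraries; COL1A1, THSD7B, PMS2 and IL1RAPL2 lie in the opposite quadrants.

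The 12 genes with the largest fold change toward each side were then taken. On the OTX2-positive side they included GLIS3, a Krüppel-like zinc finger factor, at 19.8 and 22.02 against 282 and 169.6 CPM (-3.38 ± 0.31 SE, edgeR adjusted p = 6.37e-25), and SPARCL1, a matricellular glycoprotein, at 19.1 and 8.41 against 132 and 174 CPM (-3.55 ± 0.35 SE, edgeR adjusted p = 1.52e-20). The binding protein IGFBP6, the Notch-like ligand DLK1, the melanosomal transporter OCA2 and the potassium channel KCNJ6 were each at 24.2 CPM or more on that side and at 12.01 CPM or less on the other. KCNJ6 rested on 13 UMI in 4 OTX2-positive cells, and all 5 UMI of replicate 2 were in 1 cell. TRPM3 and PCDH9 were called, but their libraries differed widely. TRPM3, a cation channel gene abundant in choroid plexus, was at 3.19 and 35.2 against 319 and 145 CPM; 1 HOX-positive cell of replicate 2 held 61 of 88 UMI, and 6 alternatives lost the call (adjusted p up to 0.961). PCDH9, a protocadherin, had 10 and 86 UMI in OTX2-positive cells, 37 of the 86 in 1 cell, and lost its call under 3 alternatives (adjusted p up to 0.570).

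On the HOX-positive side CATHL5, a cathelicidin antimicrobial peptide, had 64 and 183 UMI against 0 and 0, at least 8.50-fold higher at the floor of 3 counts. B3GAT2, a glucuronyltransferase of the HNK-1 epitope, had 62 and 160 against 0 and 0, at least 7.64-fold higher (called in 8 of 10 alternatives, adjusted p up to 0.0589). GAP43, a growth cone protein, was at 137 and 227 against 18.8 and 33.9 CPM (2.79 ± 0.37 SE, edgeR adjusted p = 2.91e-11). OPCML, a neural adhesion molecule, was at 133 and 165 against 9.39 and 33.9 CPM (2.79 ± 0.40 SE, edgeR adjusted p = 1.33e-09). The protease ADAMTS18 and the glutamate receptor GRM7 had at most 3 UMI on the OTX2-positive side and pooled ratios of 8.94 (3.03 to 43.6) and 20.9 (3.72 to 831). FOXP2, a forkhead repressor chosen here after its values were seen, was at 820.1 and 845 against 146 and 223 CPM (2.18 ± 0.18 SE, edgeR adjusted p = 1.62e-29). FOXP2 was found in 64.3% and 68.6% of HOX-positive and 26.7% and 29.0% of OTX2-positive cells, and in 50.4% and 53.3% against 20.0% and 25.8% after thinning.

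PAX6, a progenitor factor of the intermediate neural tube and forebrain, was higher in OTX2-positive cells, at 147 and 105 against 225 and 276 CPM (-1.01 ± 0.22 SE, edgeR adjusted p = 5.91e-04). It was found in 63.3% and 61.3% of OTX2-positive and 46.9% and 39.2% of HOX-positive cells, and 3 of 11 alternatives lost the call (adjusted p up to 0.809). General progenitor genes differed little. NES, the intermediate filament of neural stem cells, was at 853 and 916 against 808 and 993 CPM, and 2 of 18 tested members of the progenitor list were called, PAX6 and CDH2. CDH2, neural cadherin, was at 732 and 819.6 against 1108 and 1037 CPM (-0.47 ± 0.13 SE, edgeR adjusted p = 0.0113), and was called in 4 of 12 alternatives (adjusted p up to 0.952). Cadherins and adhesion genes gave 4 calls of 15, all higher on the OTX2-positive side, among them CDH6 at 81.7 and 92.1 against 169 and 237 CPM (-1.22 ± 0.25 SE, edgeR adjusted p = 9.84e-05; 9 of 11 alternatives, up to 0.532).

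Other pathways gave few calls. FGF19, a ligand, and FGFR2, a receptor, were the 2 of 11 FGF genes called, both higher on the OTX2-positive side. FGF19 was at 40.2 and 24.8 against 117 and 38.8 CPM (-1.20 ± 0.38 SE, edgeR adjusted p = 0.0440). Neither was stable: FGF19 was called in 3 of 10 alternatives (adjusted p up to 0.214) and FGFR2 in 1 of 11 (up to 0.976), with its direction turned in thinned cells. The FGF targets DUSP6, ETV1 and ETV5 were not called (log2 fold changes -0.64, -1.06 and -1.01). Of 13 tested Notch genes and 28 oxidative phosphorylation genes, 0 passed with edgeR, DESeq2 or limma, with 1 and 6 at an unadjusted p under 0.05. By direction, 4 Notch and 23 oxidative phosphorylation genes leaned toward HOX-positive cells, against 5001 of 9801 tested genes. These list directions were not tested. Axon guidance genes split. The netrin receptor DCC, at 17.2 and 25.2 against 174 and 58.1 CPM (-2.36 ± 0.36 SE, edgeR adjusted p = 1.58e-08), and ROBO2 were higher in OTX2-positive cells. SLIT1, a ROBO ligand, at 91.3 and 102 against 23.5 and 63.0 CPM (1.18 ± 0.37 SE, edgeR adjusted p = 0.0468), and UNC5D were higher in HOX-positive cells. SLIT1 was called in 3 of 10 alternatives (adjusted p up to 0.673), UNC5D in 6 of 10 (0.997), ROBO2 in 8 of 11 (0.528) and DCC in 9 of 10 (0.172).

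Neuron and cell cycle genes were not set equal by the rule. MAP2, a microtubule protein of neurons and their precursors, was at 535 and 509.7 against 1179 and 1056 CPM (-1.10 ± 0.13 SE, edgeR adjusted p = 1.47e-13), and NEFM was also higher in OTX2-positive cells (called in 7 of 11 alternatives, adjusted p up to 0.691), while GAP43 was higher in HOX-positive ones. The neuron genes that the rule used stood at like levels, for example ELAVL3 at 34.5 and 42.4 against 32.9 and 33.9 CPM. The rule capped these genes in every cell of both sides, so their likeness is a description only. S phase genes gave 2 calls of 20, UHRF1 and CDCA7, and G2 and M phase genes 1 of 19, CENPF, each higher in HOX-positive cells. UHRF1 was called in 7 of 10 alternatives (adjusted p up to 0.492) and CDCA7 in 5 of 10 (0.578). CENPF was at 385 and 478 against 235 and 223 CPM (0.91 ± 0.20 SE, edgeR adjusted p = 3.27e-04). The mitotic marker MKI67 was at 96.4 and 103 against 61.1 and 121 CPM and was not called. By direction, 17 of 20 S phase and 14 of 19 G2 and M phase genes leaned toward HOX-positive cells, against 5001 of 9801 tested genes. Their median log2 fold changes were 0.26 and 0.15. The G2 and M phase list summed to 1788 and 1909 against 1151 and 2001 CPM, opposite ways in the libraries. The list directions were not tested, so the sides were not shown to differ in division as a whole.

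**Figure D4:**
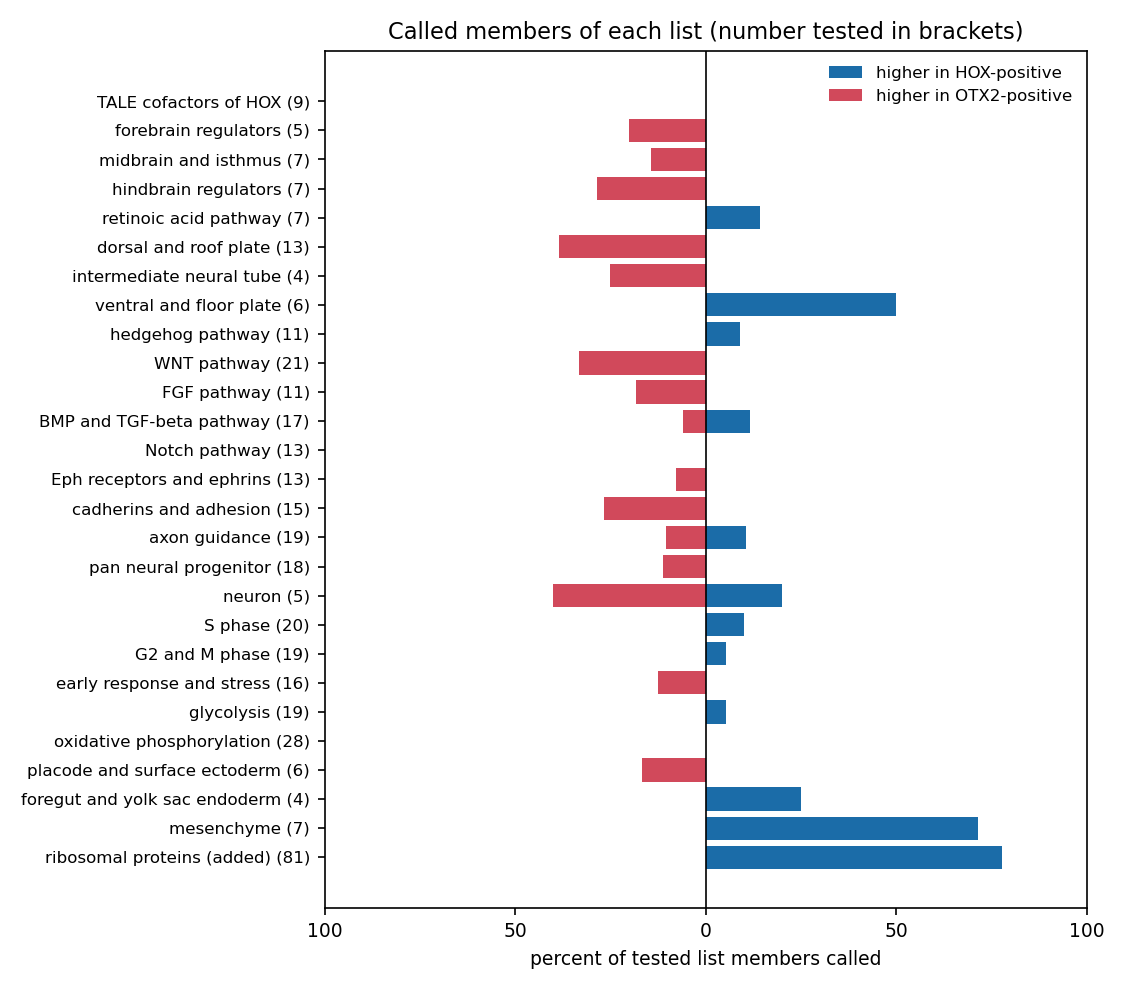
Percent of the tested members of each gene list that were called, to the right when higher in HOX-positive and to the left when higher in OTX2-positive progenitors, for lists with at least 4 tested members. Roof plate and WNT genes lie to the left, floor plate, mesenchyme and ribosomal protein genes to the right, and TALE cofactors, Notch and oxidative phosphorylation genes have no bar; over all genes the shares are 1.84% right and 1.45% left.

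Some markers of other cell types differed between the sides. Of 7 tested mesenchyme genes 5 were called, all higher in HOX-positive cells, and the list summed to 296 and 555 CPM there against 79.8 and 82.4 CPM on the OTX2-positive side. COL3A1, a fibrillar collagen, was at 93.2 and 191 against 14.1 and 24.2 CPM (2.88 ± 0.42 SE, edgeR adjusted p = 3.02e-09; called in 8 of 10 alternatives, up to 0.323). COL3A1 was found in 23.2% and 25.6% of HOX-positive and 10.0% and 16.1% of OTX2-positive cells, but single cells held much of some counts. In replicate 2, 1 HOX-positive cell held 262 of 476 COL3A1 UMI and 227 of 301 COL1A1 UMI, and in replicate 1, 1 cell held 94 of 132 DCN UMI. COL1A1, called at 1.60 ± 0.48 SE (edgeR adjusted p = 0.0326), was -0.27 without replicate 2 and 2.47 without replicate 1. Without the highest cell of each group, pooled COL3A1 was at 84.6 unscaled CPM in HOX-positive and 17.0 in OTX2-positive cells, and pooled COL1A1 at 25.1 and 17.2. The part of mesenchymal cells among the members in other differences was not tested. Markers of endothelium and blood gave 0 calls of 3 tested with edgeR, DESeq2 or limma (1 at an unadjusted p under 0.05), and the globin gene HBZ was at 341 and 392 against 254 and 276 CPM. KRT18, an epithelial keratin, was higher in OTX2-positive cells, at 76.0 and 80.1 against 178 and 199 CPM (-1.27 ± 0.26 SE, edgeR adjusted p = 1.01e-04), but was 0.59 and not called among cells with no neuron gene UMI. It was the 1 call among 6 tested placode and surface ectoderm genes. The keratin KRT8, at 72.8 and 120 against 183 and 82.4 CPM, went opposite ways in the libraries and was not called (edgeR adjusted p = 0.494). In that list 7 genes, EPCAM among them, had no UMI on the shallower OTX2-positive side.

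In 3 further called genes, THSD7B, PMS2 and IL1RAPL2, chosen after their values were seen, the libraries went opposite ways. Among the OTX2-positive cells of replicate 2, 1 cell held 17 of 30 THSD7B UMI, 1 held 38 of 47 PMS2 UMI and 1 held 24 of 25 IL1RAPL2 UMI. With 1 residual degree of freedom the fit used 1 spread shared by all genes, so such genes could pass although their libraries disagreed.

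Ribosomal protein genes, a list added after the values were seen, took a larger share of UMI in HOX-positive cells, 13.8% and 17.4%, than in OTX2-positive cells, 10.4% and 13.8%. The difference within a library was close to that between libraries. Of 81 tested, 63 were called, all higher in HOX-positive cells, with a median log2 fold change of 0.42. They made up 63 of the 180 genes called in that direction. Each of the 63 was called in 4 to 8 of 11 alternatives, with the highest adjusted p of a gene between 0.405 and 0.985. Against progenitors with neither gene, 0 of 81 were called in HOX-positive cells with edgeR (17 at an unadjusted p under 0.05). With ribosomal and mitochondrial genes left out of both testing and scaling, which left 255 of the 322 to test, 205 genes were called, 87 higher in HOX-positive and 118 higher in OTX2-positive cells, and with total UMI scaling 153, 61 and 92. The share of calls higher in HOX-positive cells was 55.9% in the main fit, 42.4% without those genes and 39.9% with total UMI scaling.

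GFP, the transgene row of the table, was at 2233 and 2702 CPM in HOX-positive and 1549.8 and 1705 CPM in OTX2-positive cells (0.60 ± 0.10 SE, edgeR adjusted p = 7.23e-07). The groups did not overlap, but the call was lost without a replicate block (adjusted p = 0.468), with 2 UMI required for a side (0.849) and after thinning (0.300), with a range of 9.58e-09 to 0.849 over 12 alternatives. At thinned depth, GFP was detected in 78.1% and 78.7% of HOX-positive and 66.7% and 64.5% of OTX2-positive cells. Within the HOX-positive side GFP differed by which HOX gene a cell carried. Cells in which HOXB2 was the 1 HOX gene seen (52 and 102 cells) had 2954 and 3226 unscaled CPM of GFP, and those with HOXA3 alone (49 and 65 cells) had 1199 and 1108. HOXA2-only cells (75 and 110 cells) lay between, at 2153 and 2395.

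Some other genes followed the same order and others did not. SHH was at 140.0 and 150.01 unscaled CPM in HOXB2-only cells, 69.6 and 95.8 in HOXA2-only cells and 32.9 and 19.4 in HOXA3-only cells. PAX6 ran the other way, at 88.7 and 32.1, 153.9 and 101.8, and 214 and 182. FOXA2 was at 369 and 436 in HOXB2-only cells, 209 and 289 in HOXA2-only cells and 293 and 211 in HOXA3-only cells, with the last pair in opposite order in the libraries. CRABP1, at 443 and 364, 272 and 358, and 280 and 560, did not keep an order either. HOXB3-only cells, 8 and 8, had GFP at 5258 and 3164 and SHH at 258 and 130.04. The order of the first 3 groups held in both libraries for GFP, SHH and PAX6, was seen after the values were known and was not tested. Median depth differed too, at 7914 and 8511 UMI in HOXB2-only and 5539 and 6380 in HOXA3-only cells.

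Each side was then set against the 937 progenitors with neither gene, a comparison added after the values were seen. HOX-positive cells were hardly distinguished: 7 of 10481 genes were called (0.0668%), 2 higher (0.0191%) and 5 lower (0.0477%), with 564 at an unadjusted p under 0.05. The 2 were LOC508098 and DCN, a proteoglycan of connective tissue, which rose by 1.25 ± 0.19 SE on the log2 scale (edgeR adjusted p = 1.88e-04). In replicate 1, 94 of the 132 DCN UMI were in 1 cell. Without the highest cell of each library, HOX-positive cells were at 24.3 and 41.3 unscaled CPM. Progenitors with neither gene, with no cell left out, were at 49.5 and 21.1 CPM scaled by TMM factors. HOX-positive cells were then lower in replicate 1 and higher in replicate 2. The 5 lower genes were SRGN, NPPC, MDGA2, RNF19B and CNTNAP2. FOXA2, at 0.05, SHH, at 0.15, and RSPO2, at 0.57, were not called. OTX2-positive cells had 186 genes called (1.77%), 100 higher (0.954%) and 86 lower (0.821%), although they numbered only 61.

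Of the 322 genes called between the sides, 160 were also called for OTX2-positive against neither and 3 for HOX-positive against neither. RSPO2 was 5.08 log2 units above the progenitors with neither gene in OTX2-positive cells (edgeR adjusted p = 5.47e-19), RSPO3 3.35 (3.81e-24), WNT2B 5.12 (5.68e-14), SFRP2 2.92 (2.46e-16) and LMX1A 2.64 (1.52e-09). FOXA2 was -3.26 (edgeR adjusted p = 7.52e-12) and SHH -5.19 (3.83e-07) in OTX2-positive cells against neither. GFP was 0.25 in HOX-positive and -0.36 in OTX2-positive cells against neither, and called in neither comparison (edgeR adjusted p = 0.917 and 0.190). The 3 comparisons share cells, and the progenitors with neither gene were shallower, at a median of 5408 and 5923 UMI, so some of them may carry HOX or OTX2 transcripts that were not captured.

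The cells with both genes, 13 and 24, had 87 genes called against neither (0.83%), 12 higher (0.114%) and 75 lower (0.716%). They did not share the R-spondin rise: RSPO2 was 1.33 (edgeR adjusted p = 0.484) and RSPO3 0.73 (adjusted p = 0.436) against neither. FOXA2 was lower, at -0.95 (edgeR adjusted p = 0.0318), and PAX3 higher, at 0.94 (edgeR adjusted p = 0.0205). The difference between cells with both and OTX2-positive cells was not itself tested.

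HOX and OTX2 transcripts were also found outside the progenitors. Among 1172 cells with 3 or more neuron gene UMI, 49.8% had a HOX UMI and 5.03% an OTX2 UMI, at a median of 7622.5 UMI. In progenitors the shares were 37.9% and 6.10% at a median of 6379.5 UMI. At equal thinned depth the HOX share was 20.3% and 21.1% in the neuron gene cells, above 14.2% and 14.3% in progenitors, and the OTX2 share 1.54% and 1.68%, against 2.20% and 2.38%. The HOX intervals of the 2 kinds of cell overlapped by little in replicate 1 and not in replicate 2, and the OTX2 intervals overlapped in both. These intervals cover counting error over cells only, and the differences were not tested.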

How the data were processed

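The table deposited by the authors holds raw counts of UMI, with 17846 genes as rows and 4437 barcodes as columns; Cell Ranger, R 4.1.2, Seurat 4.3.0 and genome build bosTau9 are named per the submitters' processing notes. The lowest barcode had 504 UMI, and the filter behind it is not stated. The number that starts each column name gave its library, and 0 columns of other samples were found. The members and gene lists were chosen with earlier results of these data known.

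Counts were summed per side and library into 4 sums and fitted with edgeR 4.0.16 in R 4.3.3 (TMM, filterByExpr, glmQLFit robust, Benjamini-Hochberg over all tested genes), with the library as a block. The block is given by the design, since both sides come out of each library; the deviations of the sides from their means correlated by 0.067 over all tested genes and 0.168 over 2787 genes with at least 20 counts. Residual degrees of freedom were 1 and prior degrees of freedom infinite, so 1 trended spread stood for every gene. The 9 genes of the rule were not tested. Cells were not used as replicates. The 4 kinds of progenitor fitted together left 3 residual and 53.1 prior degrees of freedom. limma 3.58.1 (limma-trend, prior count 2) and DESeq2 1.42.0 were alternatives.

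Named genes were the 12 with the largest fold change toward each side among called genes that moved alike in both libraries and reached a mean of 30 CPM on the higher side, the rule's genes, GFP, list members that define a region, and up to 5 called members of a list. Other genes named were chosen after their values were seen. Intervals are exact Clopper-Pearson at 95%, and a count of 0 was read at a floor of 3 counts. The fit was tested on simulated data. No sequences or coordinates were used. Some genes are not reported here.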

Additional observations from a re-analysis of the deposited data

How the results depend on the processing

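Of 322 genes called, 180 higher in HOX-positive and 142 higher in OTX2-positive cells, with the library as a block, the fit with no replicate block called 135, 43 and 92. Total UMI scaling called 153, 61 and 92, and leaving out ribosomal and mitochondrial genes 205 and 87 higher in HOX-positive cells. DESeq2 called 68, 56 and 12, and gave no adjusted p for 190 of the 322. Requiring 2 UMI for a side called 106, 33 and 73, thinned cells 2, 1 and 1 (CRABP1 and RSPO2), and cells with no neuron gene UMI 115, 92 and 23. The last 3 settings have fewer cells; the other causes were not tested. DESeq2 size factors, no filter, limma-trend, all 4 kinds of progenitor in the fit and at least 4000 UMI kept the total between 273 and 321. In 11 alternatives apart from thinning, 35 genes, 12 higher in HOX-positive and 23 higher in OTX2-positive cells, were called wherever an adjusted p was given and had at least 9 of them, among them RSPO1, RSPO3, LMX1A, SFRP2, FOXA2, SHH and FOXP2. Of the called genes, 23 of 192 turned direction in thinned cells, 3 of 305 with no neuron gene UMI, 1 of 285 with 2 UMI for a side, 1 of 322 with limma-trend and 1 of 322 with DESeq2. Among the genes named in the text, directions turned for FGFR2 (0.22), CDH2 (0.14) and ROBO2 (1.80) in thinned cells, KRT18 (0.59) with no neuron gene UMI, and COL1A1 (-0.27, against 2.47 without replicate 1) without replicate 2. The HOX-positive share, 35.2%, was 39.2% at 4000 UMI, 10.4% with 2 UMI for a side and 16.3% in thinned cells, and ran from 32.9 to 37.5% without either replicate. The OTX2-positive share, 3.88%, was 1.51% with 2 UMI and 1.74% in thinned cells, and ran from 3.35 to 4.41% without either replicate. Counts without a replicate could not be fitted, because no residual degrees of freedom were left.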
